A study of Homo sapiens with 4 samples.

Results

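The proteasome genes described here are 48 protein-coding genes of the 64252 rows in the count table. They carry a symbol that begins with PSMA, PSMB, PSMC, PSMD, PSME, PSMF or PSMG and a number, or are POMP or ADRM1, and the interferon-inducible subunits PSMB8, PSMB9 and PSMB10 were left out. By textbook role 47 of them fall into 6 classes: 8 core alpha, 8 core beta, 10 base, 8 lid and 8 assembly genes, and 5 activator and inhibitor genes. The remaining gene, PSMC3IP, meets the naming rule but encodes a meiotic recombination cofactor and is counted apart. Transcripts were counted by RNA sequencing in SK-N-BE(2), a human neuroblastoma cell line with an amplified MYCN gene. In each of 2 groups there were 2 libraries, from cells with a control hairpin RNA (shControl) or with a hairpin against CDK5RAP3 (shCDK5RAP3), a partner of the UFM1 ligase. The cells were transfected, and how many hairpins were used is not given here. Nothing says that the 2 libraries of a group came from separate cultures, so p-values reflect library-to-library spread alone, which may be technical.

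The 26S proteasome degrades proteins that carry ubiquitin chains. Its 20S core is a barrel of outer alpha rings and inner beta rings, and 3 of the beta subunits hold the catalytic sites. At either end sits a 19S particle. The base of that particle contains a ring of ATPases that unfolds the substrate, with ubiquitin receptors beside it, and the lid removes the ubiquitin chain. Dedicated chaperones assemble the core and the base, and alternative caps (PSME1 to PSME4) can replace the 19S particle. Proteasome genes are known to be induced together by the transcription factor NFE2L1.

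Most subunits of the 26S proteasome rose modestly and together in the shCDK5RAP3 libraries, while the assembly factors and alternative caps did not move 1 way. Of the 32 tested subunits of the core, base and lid, 25 were higher (78.1%), 1 was lower and 6 did not pass an edgeR adjusted p of 0.05. Over all 18775 tested genes, 19.7% were higher and 21.8% lower by the same test (41.5% in either direction). Among the 3757 genes expressed at least as highly as the lowest of these subunits, 38.8% were higher. The median log2 fold change of the 32 subunits was 0.41, against -0.00 over all tested genes and 0.10 over those 3757. Summed over these subunits, expression was 4192 and 4475 CPM (each count scaled to a common library total) in shControl and 5625 and 5920 CPM in shCDK5RAP3, 1.33-fold higher with no overlap between the groups. Of the 13 assembly, activator and inhibitor genes 2 rose, 4 fell and 7 did not pass, with a median of -0.10 and a summed level of 769 ± 6.94 CPM in shControl and 773 ± 1.54 CPM in shCDK5RAP3 (SD, n = 2 per group). The difference between these 2 sets was not tested: with 2 libraries against 2, an exact permutation test cannot reach the threshold. In bulk RNA, fewer cells that express a gene and less of its RNA in each cell cannot be told apart.

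**Figure D1:**
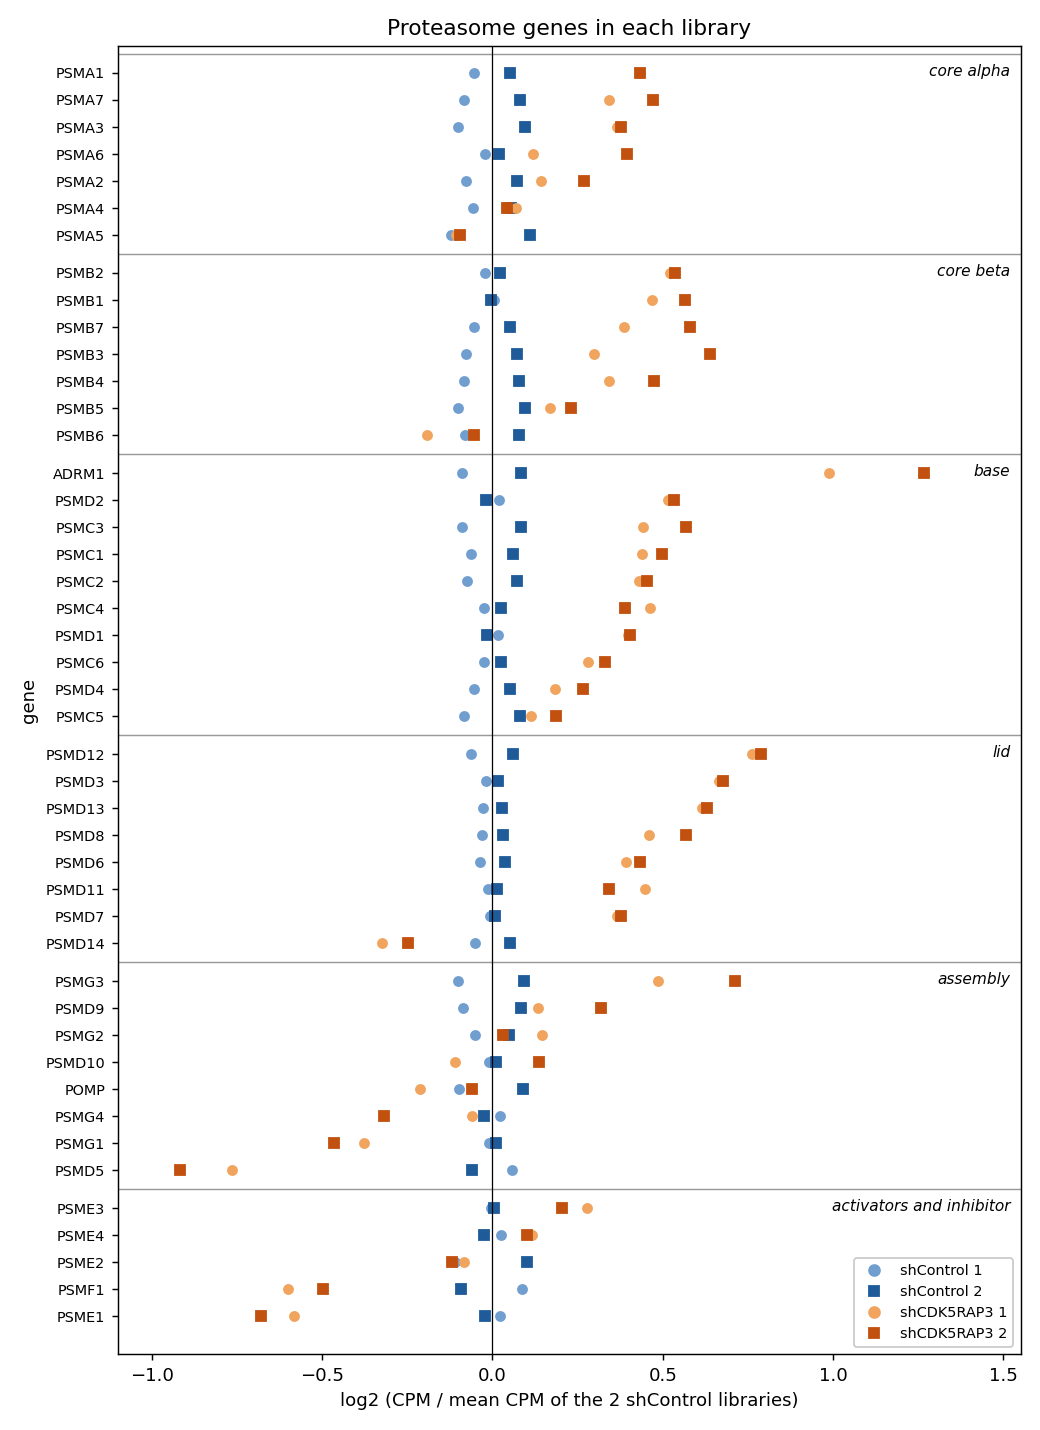
Level of each tested proteasome gene in each of the 4 libraries, as log2 of its CPM over the mean CPM of the 2 shControl libraries, grouped by class and ordered by fold change. Circles are the first and squares the second library of a group. Both shCDK5RAP3 libraries lie right of both shControl libraries for 17 of the 18 base and lid genes, PSMD14 lying left. The assembly and activator genes lie on both sides. Over all tested genes, the groups did not overlap for 71.4%, and 35.0% did so upward.

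Depth was even, with totals of 28721740 and 28755837 counts for shControl and 28653689 and 30138393 for shCDK5RAP3. CDK5RAP3 itself had 2529 and 2866 counts in shControl and 1669 and 1689 in shCDK5RAP3, a fall to 62.1% of control (edgeR adjusted p = 0.000163). All 8 noradrenergic neuroblastoma markers checked were expressed, with a summed level of 7936 and 8394 CPM in shControl and 4699 and 4827 CPM in shCDK5RAP3, and 7 of them fell. Leukocyte, endothelial, epithelial and Schwann cell markers were near 0, none of the 4 lists summing to over 6.88 CPM in a library, with CD3E, CDH1 and SOX10 at 0 counts in all 4. The 3 fibroblast markers summed to 242 and 249 CPM in shControl and 119 and 116 CPM in shCDK5RAP3, and all 3 fell. The part of these marker differences in the proteasome results was not tested.

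The alpha rings are made of PSMA1 to PSMA7 and gate the entry to the core. Of these 7 tested genes 4 rose (57.1%), 0 fell and 3 did not pass. By the same test 19.7% of all tested genes rose, and 38.8% of those expressed at least as highly as the lowest 26S subunit. The median log2 change of the alpha genes was 0.26 (0.14 with shCDK5RAP3 replicate 2 left out). It lay below the upper quartile of those more highly expressed genes, 0.33. PSMA7 had 8015 and 9021 counts in the shControl and 10639 and 12036 in the shCDK5RAP3 libraries. Its level went from 294 ± 23.5 to 390 ± 24.2 CPM (SD, n = 2 per group), with a log2 fold change of 0.41 (SE 0.07; edgeR adjusted p = 0.0023). PSMA1, with 125 and 134 CPM in shControl, stood at 175 CPM in both shCDK5RAP3 libraries (log2 change 0.43). PSMA3 rose by 0.37 and PSMA6 by 0.26 on the log2 scale. PSMA2 reached 0.21 with an edgeR adjusted p of 0.0552, and its groups did not overlap. PSMA4 (0.06) and PSMA5 (-0.10) overlapped between the groups.

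With shCDK5RAP3 replicate 2 left out, a fit that called 3752 genes over the whole table in place of 7792, PSMA1 was the only alpha gene called. PSMA3 (log2 change 0.36, edgeR adjusted p = 0.0915) and PSMA7 (0.34, 0.0825) missed the threshold there with changes near those above, while PSMA6 was at 0.12 (0.383). PSMA3 also missed it without shCDK5RAP3 replicate 1 (0.39, 0.055). The PSMA6 call was lost as well without shControl replicate 1 (0.24, 0.0652), with library size as the only scaling (0.23, 0.0541) and with no filter on low counts (0.25, 0.263). PSMA2 passed without shControl replicate 2 (0.0122) and PSMA5 fell without shControl replicate 1 (-0.21, 0.0426), where PSMA4 changed sign to -0.00048. PSMA6 shares 14.1% of its exon bases with AL121594.1, a coding locus on the same strand that had 417, 534, 1147 and 441 counts in the 2 shControl and then the 2 shCDK5RAP3 libraries. PSMA6 itself had 3618, 3742, 3938 and 4932 counts in the same order, and the sum of both was 4035, 4276, 5085 and 5373. With the sum in its place the log2 change of PSMA6 was 0.33 (edgeR adjusted p = 0.00288), and the gap between the shCDK5RAP3 libraries narrowed.

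The beta rings carry the proteolytic sites, which PSMB5 (chymotrypsin-like), PSMB6 (caspase-like) and PSMB7 (trypsin-like) provide, and PSMB1 to PSMB4 complete the ring. Of these 7 genes 5 rose (71.4%), 0 fell and 2 did not pass, with a median log2 change of 0.48. Among all tested genes 19.7% rose, and 38.8% of those expressed at least as highly as the lowest 26S subunit. PSMB2 had 4705 and 4869 counts in shControl and 6757 and 7074 in shCDK5RAP3, or 165 ± 3.43 against 238 ± 1.73 CPM (SD, n = 2 per group), with a log2 fold change of 0.53 (SE 0.06; edgeR adjusted p = 0.00017). PSMB1 rose by 0.52, PSMB7 by 0.49, PSMB3 by 0.48 and PSMB4 by 0.41. For all 5 both shCDK5RAP3 libraries lay above both shControl libraries, as they did for 35.0% of all tested genes. With shCDK5RAP3 replicate 2 left out, PSMB7 (edgeR adjusted p = 0.0513), PSMB3 (0.122) and PSMB4 (0.0854) were no longer called, and 2 beta genes were.

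Of all tested genes 41.5% passed the test, and of the 3 catalytic subunits 1 did, PSMB7. It had 4700 and 5077 counts in shControl and 6289 and 7448 in shCDK5RAP3. PSMB5 had 4963 and 5709 against 5908 and 6386 (log2 change 0.20, edgeR adjusted p = 0.0623), without overlap between the groups, and it passed without shControl replicate 2 (0.30, 0.00491). PSMB6 had 1839 and 2063 against 1682 and 1915 (-0.12, 0.274), and its groups overlapped. The ratio of PSMB7 to PSMB6 counts was 2.51 ± 0.067 in shControl and 3.81 ± 0.106 in shCDK5RAP3 (SD, n = 2 per group), and that of PSMB5 to PSMB6 went from 2.73 ± 0.0485 to 3.42 ± 0.126. Within each of these ratios the gap between groups was larger than the spread between libraries, but the pairs were chosen after their values were seen and no test was made. The thymus subunit PSMB11 and the testis subunit PSMA8 had 0 counts in all 4 libraries, which allows up to 3 counts, about 0.104 CPM in a shControl library.

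The base held the gene with the largest change. Of its 10 genes 9 rose (90%), 0 fell and 1 did not pass, with a median log2 change of 0.43. Of all tested genes 19.7% rose, and 38.8% of those expressed at least as highly as the lowest 26S subunit. All 10 base genes were higher in both shCDK5RAP3 libraries than in either shControl library. Among all tested genes, 71.4% had groups that did not overlap and 35.0% did so upward. The ubiquitin receptor ADRM1 (Rpn13; ENSG00000130706, GRCh38 chromosome 20, 62302093 to 62308862) rose most of all proteasome genes. It had 2625 and 2975 counts in shControl and 5472 and 6868 in shCDK5RAP3, or 96.5 ± 8.20 against 212 ± 28.6 CPM (SD, n = 2 per group). This was a 2.19-fold rise (log2 change 1.13 ± 0.10 SE, edgeR adjusted p = 4.05e-05). The shCDK5RAP3 libraries differed from each other more than for most subunits, and the lower one was still well above both control libraries. ADRM1 shares 11.4% of its exon bases with LAMA5 on the opposite strand, which fell (log2 change -0.78). The library kit named in the labels does not mark strand, so reads of genes that overlap on opposite strands cannot be told apart.

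The 6 ATPases PSMC1 to PSMC6 form the unfolding ring. PSMC3 (0.51), PSMC1 (0.47), PSMC2 (0.44), PSMC4 (0.43) and PSMC6 (0.31) rose on the log2 scale. PSMC5 had 4017 and 4526 counts in shControl against 4547 and 4961 in shCDK5RAP3 and did not pass (0.15, edgeR adjusted p = 0.134), though it did without shControl replicate 2 (0.23, 0.0263). PSMD1 and PSMD2, the large scaffolds of the base, rose by 0.40 and 0.52. PSMD2 was the most abundant gene of the 19S particle by counts, with 8188 and 8009 in shControl and 11408 and 11950 in shCDK5RAP3. The second ubiquitin receptor, PSMD4, rose by 0.22 (edgeR adjusted p = 0.0251). That call was lost without shControl replicate 1 (0.096), shCDK5RAP3 replicate 1 (0.0877) or shCDK5RAP3 replicate 2 (0.237). Without shCDK5RAP3 replicate 2, PSMC2 (0.0506), PSMC3 (0.0526) and PSMC6 (0.087) also missed the threshold, and 5 base genes were called. PSMC1 shares 75.8% of its merged exon bases with NRDE2 on the opposite strand, whose counts (1501, 1407, 1354 and 1299) did not rise with it.

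The lid class rose apart from 1 gene. It leaves out the small lid subunit SEM1, which is outside the naming rule and did not pass (log2 change 0.09). Of the 8 genes in the class 7 rose (87.5%) and 1 fell (12.5%), with a median log2 change of 0.46. The shares were 19.7% and 21.8% over all tested genes. They were 38.8% and 24.0% over those expressed at least as highly as the lowest 26S subunit. The groups did not overlap for any of the 8, as for 71.4% of all tested genes (35.0% upward). PSMD12 (Rpn5; chromosome 17, 67337916 to 67366627) had 2271 and 2490 counts in shControl and 3978 and 4196 in shCDK5RAP3, a 1.71-fold rise from 82.1 ± 5.06 to 141 ± 1.77 CPM (SD, n = 2 per group), with a log2 fold change of 0.78 (SE 0.07; edgeR adjusted p = 4.2e-05). PSMD3 rose from 193 ± 3.28 to 307 ± 1.77 CPM (0.67) and PSMD13 from 111 ± 3.01 to 171 ± 1.38 CPM (0.62). PSMD8 (0.52), PSMD6 (0.41), PSMD11 (0.40) and PSMD7 (0.37) followed. These 7 are scaffold subunits, apart from PSMD7, the inactive partner of the lid's deubiquitinase. All 7 calls held without any 1 of the 4 libraries.

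That deubiquitinase, PSMD14 (Rpn11; ENSG00000115233, chromosome 2, 161308038 to 161411717), cuts ubiquitin chains off substrates and was the single 26S subunit called lower. It had 2124 and 2293 counts in shControl and 1738 and 1899 in shCDK5RAP3, or 76.2 ± 3.86 against 62.5 ± 2.34 CPM (SD, n = 2 per group), or 82.1% of control, with a log2 fold change of -0.28 (SE 0.07; edgeR adjusted p = 0.012). The groups did not overlap. Its call was lost without shCDK5RAP3 replicate 1 (-0.24, 0.146), without shCDK5RAP3 replicate 2 (-0.33, 0.0824) and with no filter on low counts (0.069). Relative to PSMD7, with which it pairs in the complex, PSMD14 counts went from 0.468 ± 0.0201 to 0.297 ± 0.00937 (SD, n = 2 per group). This ratio fell by more than the spread between libraries, and it was chosen after the values were seen.

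**Figure D2:**
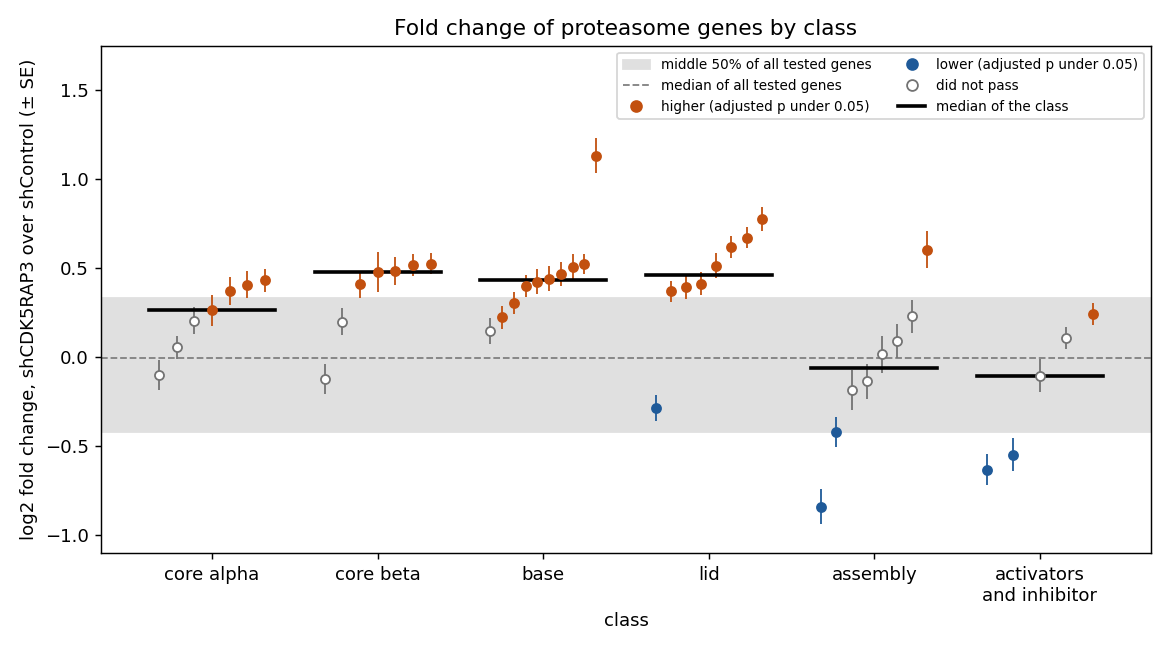
Log2 fold change, shCDK5RAP3 over shControl, of each tested proteasome gene with its standard error, by class; the thick line is the median of the class and the grey band the middle 50% of all tested genes. The 4 classes of the 26S proteasome have medians from 0.26 to 0.48, and those of the assembly and of the activator and inhibitor classes lie at -0.06 and -0.10.

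The assembly factors are needed to build the complex but are not part of it when mature. Among the 8 tested there were 1 rise, 2 falls and 5 genes without a call, or 37.5% called, near the 41.5% of all tested genes. PSMD5 (S5b; chromosome 9, 120815496 to 120842984), a base chaperone that also restrains 26S assembly, had 1191 and 1105 counts in shControl and 666 and 620 in shCDK5RAP3. It fell to 55.9% of its control level (39.6 ± 2.23 CPM), reaching 22.1 ± 1.68 CPM (SD, n = 2 per group), with a log2 fold change of -0.84 (SE 0.10; edgeR adjusted p = 0.000204), the steepest fall among the proteasome genes. The other base chaperones, PSMD9 (0.23, edgeR adjusted p = 0.0792) and PSMD10 (0.02), did not pass. PSMD9 passed without shControl replicate 2 (0.0253).

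The core chaperones PSMG1 to PSMG4 form 2 pairs, and in each pair 1 gene passed the test. With POMP counted in, 40% of the core chaperones passed, near the 41.5% of all tested genes. The differences within pairs were not tested. PSMG1 had 1215 and 1239 counts in shControl and 930 and 906 in shCDK5RAP3, a fall to 74.7% of control (log2 change -0.42, edgeR adjusted p = 0.00372), and its partner PSMG2 had 790 and 851 against 894 and 855 (0.09). PSMG3 rose from 977 and 1123 to 1449 and 1756 (0.60, 0.00161), while its partner PSMG4 had 764 and 743 against 711 and 616 (-0.19). POMP, which matures the beta ring, had 1206 and 1381 against 1098 and 1266 and did not pass (-0.13). Without shCDK5RAP3 replicate 2 the calls of PSMG1 (0.0657) and PSMG3 (0.0582) were lost and PSMD10 changed sign to -0.11. In that fit PSMD5 was the only assembly gene called.

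Alternative caps open the core without ubiquitin. PSME1 and PSME2 are the interferon-inducible PA28 subunits and form 1 ring. PSME1 (chromosome 14, 24136158 to 24138967) had 1328 and 1296 counts in shControl and 862 and 836 in shCDK5RAP3, a fall to 64.6% of the control level (log2 change -0.63, SE 0.09, edgeR adjusted p = 0.000437). PSME2 had 1143 and 1332 against 1149 and 1162 and did not pass (-0.10, 0.421), with overlapping groups. The nuclear cap PSME3 rose by 0.24 (0.012), a call lost without either shCDK5RAP3 library (0.127 and 0.0819), and the large cap PSME4 was at 0.11 (0.183). PSMF1, an inhibitor of the core, had 1496 and 1328 counts in shControl and 917 and 1021 in shCDK5RAP3, and fell to 68.4% of control (-0.55, 0.00153). Both PSME1 and PSMF1 kept their calls without any 1 of the 4 libraries.

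**Figure D3:**
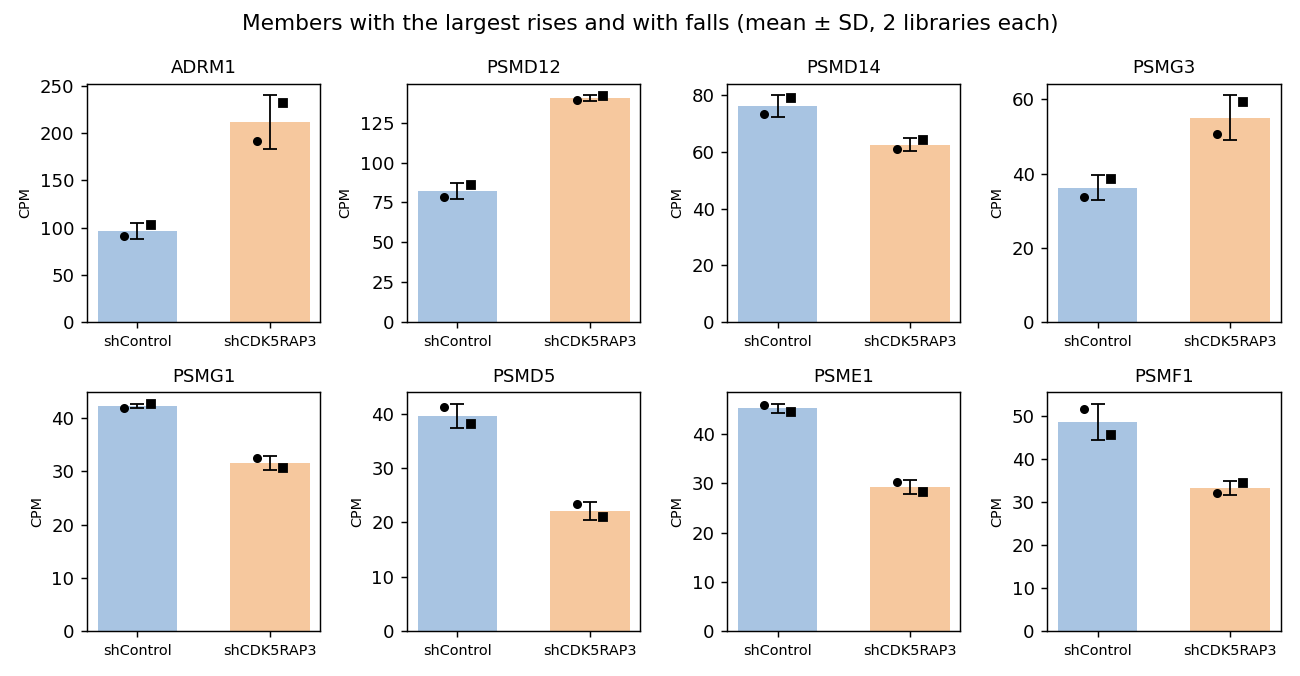
CPM of 8 proteasome genes chosen after their values were seen, the 3 with the largest rises in the base, lid and assembly classes and the 5 called lower; bars are means, error bars SD over 2 libraries, circles the first and squares the second library of a group. ADRM1 goes from 96.5 to 212 CPM and PSMD5 from 39.6 to 22.1 CPM. In none of the 8 do the groups overlap, as in 71.4% of all tested genes.

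PSMC3IP, the gene that shares the prefix only, rose from 740 and 847 counts to 1332 and 1275 (log2 change 0.71, edgeR adjusted p = 0.000461). It shares 29.9% of its exon bases with MLX on the opposite strand (0.05). With it included, 28 of 46 tested genes that meet the rule rose (60.9%) and 5 fell (10.9%). Over all tested genes the shares were 19.7% and 21.8%. Over those expressed at least as highly as the lowest 26S subunit they were 38.8% and 24.0%. The subunits left out of the list were scarce: PSMB8 had 5, 22, 6 and 11 counts, PSMB9 3, 3, 2 and 2, and PSMB10 384, 385, 243 and 373, none with a call.

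Compared per kilobase of merged exons, which is the scale for levels between genes, PSMA7 was the most abundant subunit in shControl at 168 CPM per kb, followed by PSMB5 (104), PSMB7 (94.3), PSMB4 (91.1) and PSMB1 (80.7). The lowest of the 32 tested 26S subunits were PSMD6 (9.09) and PSMD14 (9.89), an 18.5-fold span from the top. In shCDK5RAP3 the lowest was PSMD14, at 8.12 CPM per kb, and the highest again PSMA7, at 223. Per length of the principal transcript, PSMA7 still led (295) and the span was 15.8-fold. Where several coding transcripts are tagged principal, the longest was taken, for example 4406 bases for PSMD12 and 4448 for PSMC1. On this scale PSMB4 (204), PSMB1 (196), PSMB7 (172) and PSMB5 (142) followed PSMA7 in that order, and the lowest was PSMD12 (18.6). The order below PSMA7 thus depends on the length used. By merged exons the assembly genes PSMG4 (2.49), PSMD9 (5.38), PSMG2 (8.43) and PSMD5 (8.93) lay below every tested 26S subunit. By principal transcript PSMD9 (17.0), PSMG2 (16.8) and PSMD5 (11.5) still did, but PSMG4 (31.0) lay above PSMC1, PSMA5, PSMD11 and PSMD12.

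**Figure D4:**
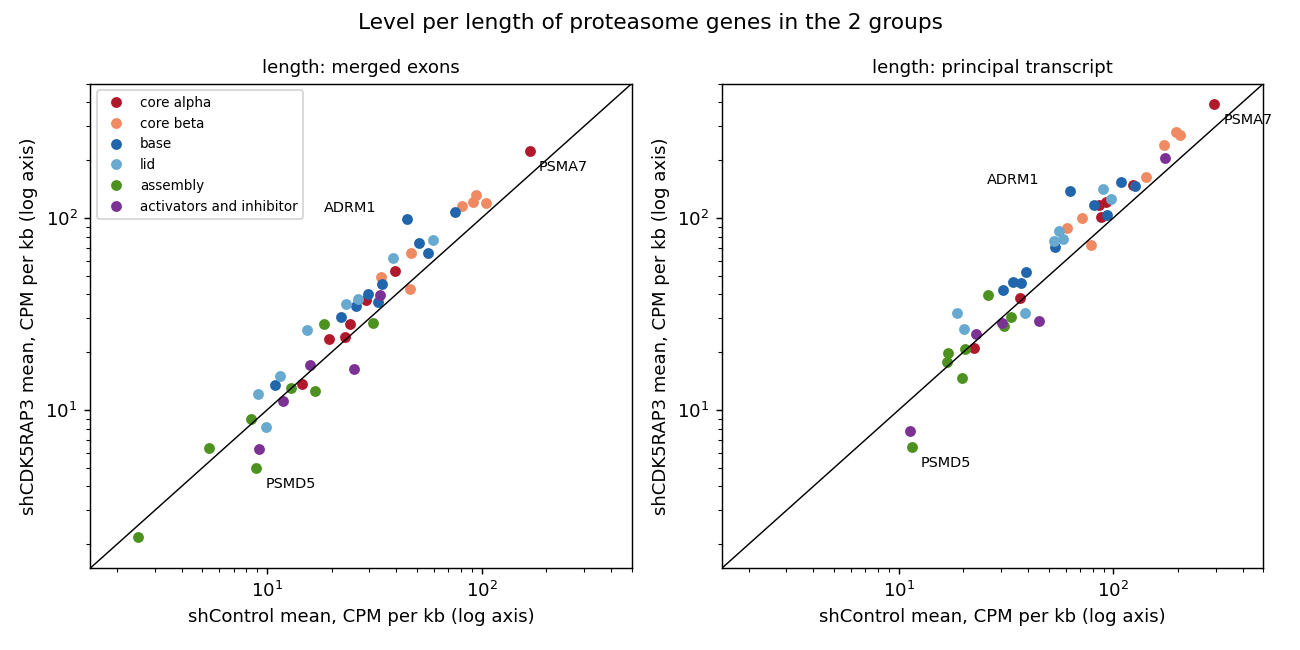
Mean CPM per kb of each tested proteasome gene in shControl (x) and shCDK5RAP3 (y) on log axes, by length of merged exons (left) and of the principal transcript (right); the line marks equal levels. Most core, base and lid genes lie above the line, with PSMA7 highest at 168 and 223 CPM per kb of merged exons, and PSMD5 lies below it.

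Genes that act around the proteasome were grouped into lists. Of 9 regulators of proteasome genes 3 rose (33.3%) and 2 fell (22.2%), shares near those of all tested genes (19.7% and 21.8%) and of the genes expressed at least as highly as the lowest 26S subunit (38.8% and 24.0%). NFE2L1, the transcription factor that induces proteasome genes when degradation is short, had 7488 and 7035 counts in shControl and 7502 and 7585 in shCDK5RAP3 and did not pass (log2 change 0.05). DDI2, the protease that cleaves NFE2L1 into its active form, had 74.2 ± 5.72 CPM in shControl and 124 ± 6.40 in shCDK5RAP3 (SD, n = 2 per group) and rose by 0.74 (edgeR adjusted p = 0.000101), and the DNA-binding partner MAFG rose by 0.69. Among the ER-associated degradation genes that handle NFE2L1, SEL1L fell by 0.81 and the ligase SYVN1 rose by 0.53. NFE2L2, the related antioxidant regulator, fell by 0.25 (0.0112), a call lost without either shCDK5RAP3 library (0.11 and 0.106). NFE2L1, NFE2L2 and SYVN1 were named after their values were seen.

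Of 19 proteasome-associated factors and ubiquitin shuttles 10 rose (52.6%) and 1 fell (5.26%), against 19.7% and 21.8% of all tested genes and 38.8% and 24.0% of those expressed at least as highly as the lowest 26S subunit. UBE3C, a ligase that works on the proteasome, rose from 6401 and 6208 counts to 11492 and 12066 (log2 change 0.90 ± 0.06 SE, edgeR adjusted p = 9.11e-06). ZFAND2A (0.65) and NPLOC4 (0.58), the latter a cofactor of the unfoldase VCP, came next, with ZFAND2A lost without shControl replicate 1 (0.0697), shCDK5RAP3 replicate 1 (0.131) or shCDK5RAP3 replicate 2 (0.066). UCHL5, the deubiquitinase that ADRM1 recruits, rose by 0.50, and the other bound deubiquitinase, USP14, by 0.28. VCP rose by 0.29. These 3 were named after their values were seen, and USP14 was lost without either shCDK5RAP3 library (0.0787 and 0.0816) and VCP without shCDK5RAP3 replicate 2 (0.0811). SEM1, a small lid subunit outside the naming rule, had 2143 and 2601 against 2510 and 2538 counts and did not pass (0.09).

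From the list of ubiquitin-encoding and ubiquitin-activating genes, the ubiquitin gene UBB rose by 0.31 on the log2 scale and the activating enzyme UBA1 by 0.24. With shCDK5RAP3 replicate 1 left out UBB and UBA1 did not pass (edgeR adjusted p = 0.0559 and 0.0809), nor with replicate 2 left out (0.0986 and 0.0977).

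**Figure D5:**
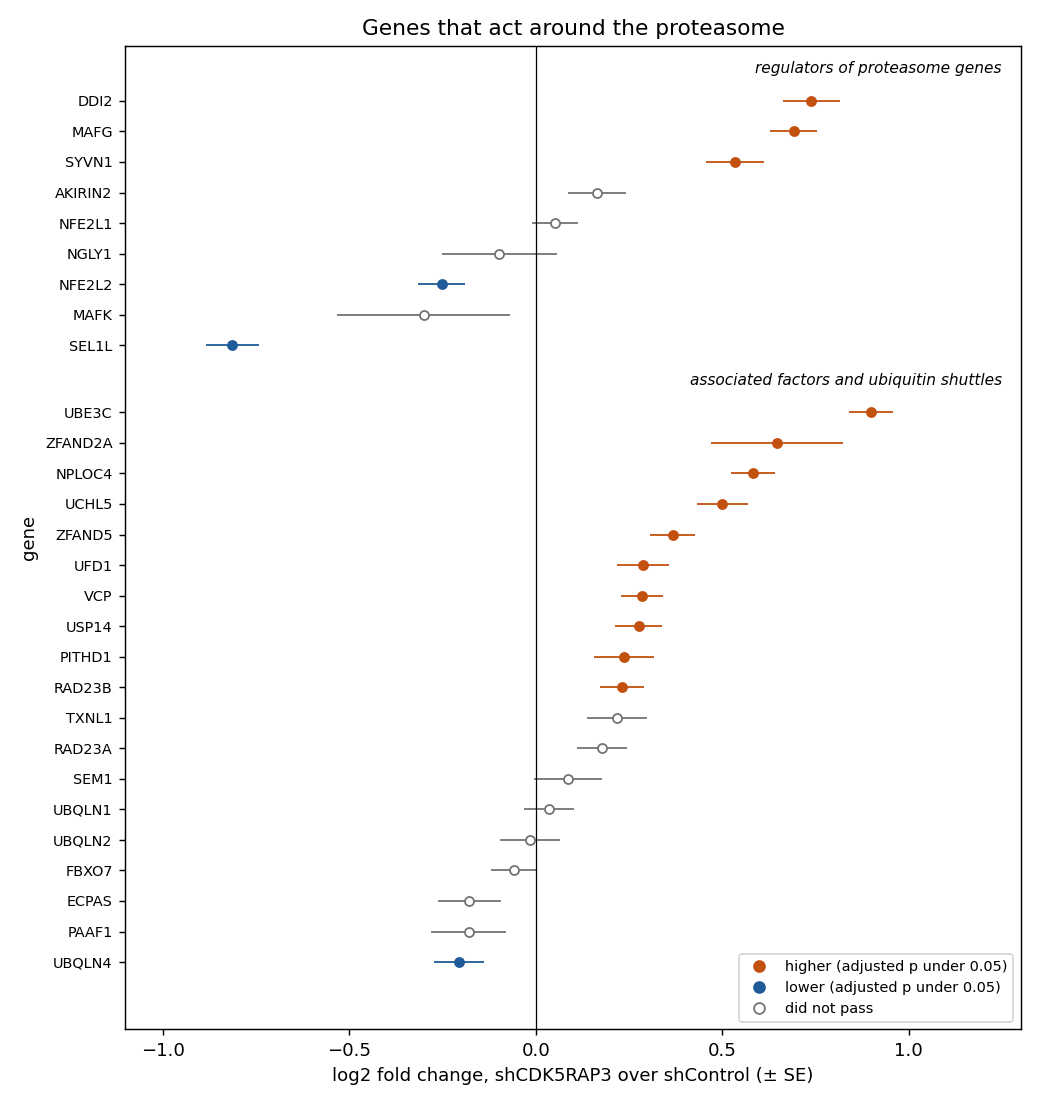
Log2 fold change with its standard error of the tested genes of 2 lists around the proteasome, regulators and associated factors; filled points passed an adjusted p of 0.05 (orange higher, blue lower in shCDK5RAP3) and open points did not. UBE3C (0.90) and DDI2 (0.74) are highest in their lists and SEL1L (-0.81) is lowest.

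Promoter sequences from RefSeq (GRCh38.p14, 250 bases before to 50 after the gene start) matched 42 of the 48 genes, leaving out PSMA7, PSMB1, PSMB6, PSMB7, PSMD4 and PSMG3. They were searched on both strands for TGACNNNGC, the core of the element that NFE2L1 and NFE2L2 bind. It occurred in 13 of the 42 promoters (31.0%), against 14.8% of the 10748 promoters of tested protein-coding genes and 13.6% of all 27305. By group it was in 6 of 29 promoters of 26S subunits (20.7%), the untested PSMA8 and PSMB11 included. It was in 7 of 12 of assembly, activator and inhibitor genes. Most 26S promoters in the table, those of genes that rose included, did not hold these letters in this window. Windows are shown for the 3 largest rises with a match and for 3 genes that fell, read in the direction of the gene, with the match in capitals; distances are from the gene start to the first capital.
ADRM1, chr20:62302749-62302777, at -137: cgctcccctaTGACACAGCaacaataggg
PSMD12, chr17:67366724-67366752, minus strand, at -165: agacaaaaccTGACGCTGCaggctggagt
PSMD3, chr17:39980760-39980788, at -37: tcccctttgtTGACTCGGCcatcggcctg
PSMD5, chr9:120843038-120843066, minus strand, at -134: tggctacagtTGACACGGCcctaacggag
PSME1, chr14:24136098-24136126, at -86: atggcagggcTGACCCCGCctcctccatc
PSMG1, chr21:39183616-39183644, minus strand, at -183: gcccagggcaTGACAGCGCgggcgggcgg

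The other 2 motifs searched were CCAAT, bound by NF-Y, and CACGTG, the E-box of MYC proteins, and overlaps between matches of different motifs were kept. CCAAT was in 16 of 29 promoters of 26S subunits (55.2%) and 3 of 12 of the assembly, activator and inhibitor genes (25.0%), against 36.4% of the promoters of tested protein-coding genes. The 29 include the untested PSMA8 and PSMB11, and PSMB11 is among the 16. CACGTG was in 3 of 42 (7.14%), those of PSMB3, PSMD9 and PSME3, against 10.1%. A match is a description of the letters and not of a bound site.

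The 3′ UTRs were searched on the transcript strand for AACACCT and ACACCTA, words that overlap by 6 bases and were chosen with results of these data known, so their presence here supports nothing. In the longest annotated 3′ UTR, 6 of the 48 proteasome genes held either word (12.5%), against 15.3% of 13561 tested genes with a 3′ UTR. Among the tested ones PSMD5 (-0.84) and PSMD14 (-0.28) were lower, and PSMD12 (0.78), PSMC1 (0.47) and PSME3 (0.24) were higher; PSMB11 had no counts. PSMD5 held the words at more places than the others, at positions 353, 489 and 1149 of its 3′ UTR, with both words overlapping at the first and last. Sites of both genes that fell and of PSMD12, which rose, are shown with the word in capitals.
PSMD5, position 353: cggtggctAACACCTataattcc
PSMD5, position 489: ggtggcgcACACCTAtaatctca
PSMD5, position 1149: tcattgacAACACCTacacccac
PSMD14, position 131: agcactgtAACACCTtcagtctc
PSMD12, position 1033: gtcaaagaAACACCTgagatgaa

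How many reads near-identical copies drew or lost cannot be seen here, because the handling of multiply mapped reads is not stated. Pseudogenes that carry other names were not counted. Annotated pseudogenes named after 12 proteasome genes made 32 rows. Their summed counts came to 1.59% of the gene's own for PSMC1, 1.03% for PSMA6 and under that for the other 10. Summing them with their parent genes changed no call. Exons overlapped another annotated gene for 22 of the 48 genes, 12 of them over at least 10% of their bases, and the split of reads there is uncertain.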

How the data were processed

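RNA-seq gene counts were analysed for 4 libraries of SK-N-BE(2) cells, 2 shControl and 2 shCDK5RAP3, grouped by sample titles. The authors deposited whole-number counts per Ensembl identifier, not scaled between libraries. HISAT2 2.2.0, StringTie and hg38 are named in the submitters' processing notes, without roles. No source used here states the annotation, strand setting or handling of multiply mapped reads. Identifiers were matched to GENCODE 29 (GRCh38): 56591 of 64252 matched, and unmatched rows, with 1.82% to 1.90% of counts, stayed in all totals and tests.

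The fit used edgeR 4.0.16 in R 4.3.3 (TMM factors, filterByExpr by group, quasi-likelihood F test, Benjamini-Hochberg over 18775 genes, threshold 0.05), without a replicate block. It was also run on simulated counts with 200 changed genes and the same dispersion for every gene, unlike the real data. There it called 9 of 50 planted log2 changes of 0.5 and 12 of 50 of -0.5. It called 47 of 50 changes of 1, 43 of 50 of -1 and 0 of 18575 unchanged genes. The standard error (SE) is the log2 fold change divided by the root of F, and CPM uses TMM-scaled library sizes. Intervals and floors (3 counts) cover counting error only. Genes named are CDK5RAP3, every member that passed, in each class the 2 most expressed that did not, members the filter removed, the 3 largest changes that passed in each list, and others where stated; some results of the ubiquitin gene list are not reported here. Members, classes and lists were chosen with earlier results of these data known. Alternatives were other scaling factors, filters, DESeq2 1.42.0, limma-trend (limma 3.58.1, prior count 2), a robust fit, a replicate block, pseudogene rows summed, a GC content and length correction, a threshold of 0.01, each library left out, and, chosen after seeing the data, same-strand loci summed and another gene length.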

Additional observations from a re-analysis of the deposited data

How the results depend on the processing

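With 2 libraries a group, leaving 1 out lets the lone library borrow the spread of the other group. Over the 4 such fits the genes called ranged from 3752 to 7329 (higher 1556 to 3516, lower 2196 to 3813). The rule's members called ranged from 19 to 37 (16 to 32 higher, 3 to 6 lower), and 26S subunits from 15 to 29 (15 to 28 higher, 0 to 2 lower). By class, members called ranged from 1 to 5 in core alpha (0 to 1 lower), 2 to 6 in core beta, 5 to 10 in the base, 7 to 8 in the lid (0 to 1 lower), 1 to 4 in assembly (0 to 2 higher, 1 to 2 lower) and 2 to 3 among activators and inhibitor (0 to 1 higher). Median log2 changes ranged from 0.30 to 0.39 over all members, 0.38 to 0.48 for the 26S subunits, 0.14 to 0.39 for core alpha, 0.34 to 0.54 for core beta, 0.40 to 0.47 for the base, 0.43 to 0.51 for the lid, -0.090 to -0.0053 for assembly and -0.21 to 0.0057 for activators and inhibitor. The last is the value of PSME2, which, like PSMA5 (0.017), changed sign without shControl replicate 2; PSMA4 (-0.00048) did without shControl replicate 1, and PSMD10 did without shCDK5RAP3 replicate 2 (-0.11; 0.15 without replicate 1), by library size (-0.011) and after correcting for GC content and length (-0.053).

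With low counts unfiltered 4488 genes were called (1966 higher, 2522 lower), with 1 core alpha and 2 core beta genes, 0 assembly genes higher and 0 lid or other 26S subunits lower; 9 members lost their calls (PSMA3, PSMA6, PSMA7, PSMB3, PSMB4, PSMB7, PSMD4, PSMD14 and PSMG3). By library size alone PSMA6 lost its call. At a threshold of 0.01, 2421 genes were higher, and 0 lid or other 26S subunits were lower and 0 activators higher. The GC content and length correction called 5 assembly genes, 2 of them higher, and 2 activators higher. The median of the activators and inhibitor was -0.071 with upper-quartile factors and -0.13 by library size. DESeq2, limma-trend and summed pseudogene or same-strand rows changed no call of a member. The span of levels per kb was 15.8-fold by principal transcript instead of 18.5-fold. Fewer libraries or more genes tested apart, the cause was not tested.

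Equal replicate numbers are not said to pair libraries. With the replicate block 32 members were higher and 5 lower, 2 assembly genes were higher, and 4 members gained a call. Deviations of same-numbered libraries from their group means correlated at 0.0534 across genes. In both groups the second library exceeded the first for 29 of 32 subunits of the 26S, by a median log2 difference of 0.11 in shControl and 0.05 in shCDK5RAP3.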
